A study of Mus musculus with 24 samples.

Results

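The genes described here are those of the aryl hydrocarbon receptor (AHR) pathway: the receptor gene *Ahr*, its partner *Arnt*, the repressors *Ahrr* and *Tiparp*, and the enzyme genes *Cyp1a1*, *Cyp1b1* and *Nqo1*. They were taken by gene symbol from the 2 deposited count tables, and all 7 members were found among the 35022 genes of PD03 removal and among the 48709 genes of CHIRON removal. The set was chosen by the count values of *Cyp1a1*, which fell strongly after PD03 removal in an earlier analysis of these libraries, and by the known biology of the receptor. The values of *Cyp1a1* in PD03 removal are therefore a description with no test, and the tests below are on the other 6 members in PD03 removal and on all 7 members in CHIRON removal.

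RNA was sequenced from E14 mouse embryonic stem cells (mESCs, strain given as 129m wt) plated on soft or stiff StemBond hydrogels, which are polyacrylamide gels with tethered fibronectin. All cells spent 12 h in 2i+LIF, which holds 1 µM of the MEK inhibitor PD03, 3 µM of the GSK3 inhibitor CHIRON and the cytokine LIF. In the first experiment PD03 was taken away, leaving CHIRON and LIF, and in the second CHIRON was taken away, leaving PD03 and LIF. RNA was collected 2 h and 12 h later, and cells kept in 2i+LIF gave the 0 h group. The labels name no transgene or deletion, and every group was a population of the same single line.

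AHR waits in the cytoplasm with the chaperone HSP90. On binding a planar ligand such as a dioxin or a tryptophan metabolite it moves to the nucleus, pairs with ARNT and binds the xenobiotic response element (XRE), whose core reads GCGTG. Its best known targets are the cytochromes P450 of the CYP1 family, which oxidise many of its ligands, and the feedback repressors AHRR, which competes for ARNT, and TIPARP, which ADP-ribosylates AHR. In mESCs the receptor has been studied for its part in self-renewal and lineage choice.

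The members lie apart in the genome (GRCm38), and only *Arnt* and *Tiparp* share a chromosome. *Ahr* is at chr12:35497974-35535038 and *Arnt* at chr3:95434388-95497240. *Ahrr* is at chr13:74211118-74292331 and *Tiparp* at chr3:65528410-65555518. *Cyp1a1* is at chr9:57687928-57703824, *Cyp1b1* at chr17:79701537-79715061 and *Nqo1* at chr8:107388225-107403206. *Arnt* overlaps the pseudogene *Gm42672* on its own strand and *Tiparp* overlaps the pseudogene *4931440P22Rik* on the other strand. The strand setting of the counting is not given in the sources used here, so some reads of *Arnt* and *Tiparp* could belong to those neighbours. In CHIRON removal *Gm42672* had at most 65 counts in a library, where *Arnt* had 1857 to 3529. *4931440P22Rik* had at most 318 counts, where *Tiparp* had 302 to 879.

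The promoters of 4 members are shown because these genes are targets of the same receptor and yet went different ways after PD03 removal. Each runs from 250 bases before to 50 bases after the start site of its RefSeq entry (GRCm38.p6), 5′ to 3′ on the strand of the gene. Capitals mark GCGTG or its reverse complement CACGC. The span of *Cyp1a1* given above is that of GENCODE M21, which begins upstream of the RefSeq start site, so the window of *Cyp1a1* lies inside that span.
Cyp1a1, chr9:57697363-57697662, plus strand: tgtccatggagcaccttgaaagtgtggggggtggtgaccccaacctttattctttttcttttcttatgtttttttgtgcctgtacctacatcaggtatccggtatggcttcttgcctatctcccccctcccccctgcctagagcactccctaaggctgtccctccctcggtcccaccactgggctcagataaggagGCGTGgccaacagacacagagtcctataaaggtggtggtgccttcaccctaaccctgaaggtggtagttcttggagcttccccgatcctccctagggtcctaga
Cyp1b1, chr17:79715012-79715311, minus strand: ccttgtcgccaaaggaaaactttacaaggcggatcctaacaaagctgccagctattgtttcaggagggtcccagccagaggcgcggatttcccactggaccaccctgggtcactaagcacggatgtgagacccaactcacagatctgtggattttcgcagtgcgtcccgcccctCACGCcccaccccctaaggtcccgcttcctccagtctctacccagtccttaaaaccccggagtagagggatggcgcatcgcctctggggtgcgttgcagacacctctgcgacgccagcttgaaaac
Ahrr, chr13:74292282-74292581, minus strand: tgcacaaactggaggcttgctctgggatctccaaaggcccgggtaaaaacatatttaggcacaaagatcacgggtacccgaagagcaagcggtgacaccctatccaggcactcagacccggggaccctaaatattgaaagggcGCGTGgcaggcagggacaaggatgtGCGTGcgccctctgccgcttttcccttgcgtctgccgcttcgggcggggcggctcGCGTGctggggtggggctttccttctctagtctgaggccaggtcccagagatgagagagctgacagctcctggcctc
Tiparp, chr3:65528197-65528496, plus strand: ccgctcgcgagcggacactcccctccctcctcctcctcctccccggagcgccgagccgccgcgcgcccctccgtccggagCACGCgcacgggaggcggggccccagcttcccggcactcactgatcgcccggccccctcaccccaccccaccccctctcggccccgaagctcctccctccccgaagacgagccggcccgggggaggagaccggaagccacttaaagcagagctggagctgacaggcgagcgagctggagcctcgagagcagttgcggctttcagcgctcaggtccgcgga

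*Ahrr* held 3 matches, which began 107, 82 and 27 bases before the start site, and *Cyp1a1*, *Cyp1b1*, *Arnt* and *Tiparp* held 1 match each. *Nqo1* held no match to GCGTG and none to TGACNNNGC, the core of the antioxidant response element through which NRF2 acts, in this window. *Ahr* had no entry. Of all 32851 promoters of this length in the same table, 32.4% held GCGTG on either strand, 11.1% held it 2 or more times and 12.4% held TGACNNNGC. The match is a description of the letters in these windows, and receptor binding was not measured.

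Total counts ran from 16222196 to 26442153 in the 12 libraries of PD03 removal and from 19393787 to 31111260 in 11 of the libraries of CHIRON removal. The other CHIRON library, stiff at 2 h replicate 1, held only 171333 counts, was discarded by the study and is left out here, so that group has 1 library, which is assumed to vary like the others. The cells expressed all 5 mESC markers (*Pou5f1*, *Sox2*, *Nanog*, *Zfp42*, *Esrrb*), whose summed level was 3301 to 4493 CPM (reads of a gene as a share of all reads assigned to coding genes, scaled to a common total). The 4 fibroblast markers summed to 2.65 to 8.17 CPM, and *Dusp6*, a target of ERK, rose by 1.90 on the log2 scale on soft at 2 h of PD03 removal. *Axin2*, a target of Wnt signalling, fell by 2.65 on the log2 scale on soft at 12 h of CHIRON removal (edgeR adjusted p = 1.15e-12).

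Per kilobase of exon, *Nqo1* was the highest member in both experiments, with a median over libraries of 81.1 CPM per kb in PD03 removal and 53.2 CPM per kb in CHIRON removal. In PD03 removal it was followed by *Tiparp* (30.0), *Cyp1a1* (7.95), *Arnt* (6.64), *Ahr* (2.67), *Ahrr* (0.437) and *Cyp1b1* (0.341), all as median CPM per kb. In CHIRON removal the order of the same quantity was *Arnt* (16.0), *Tiparp* (5.51), *Ahr* (1.29), *Cyp1a1* (0.467), *Ahrr* (0.0965) and *Cyp1b1* (0.0891). The ranges of *Cyp1a1* and *Arnt* overlapped in PD03 removal (0.749 to 13.4 and 5.84 to 8.42 CPM per kb), as did those of *Ahrr* and *Cyp1b1* in both experiments. All levels below are CPM after scaling by the trimmed mean of M values (TMM), and each experiment was scaled on its own.

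**Figure D1:**
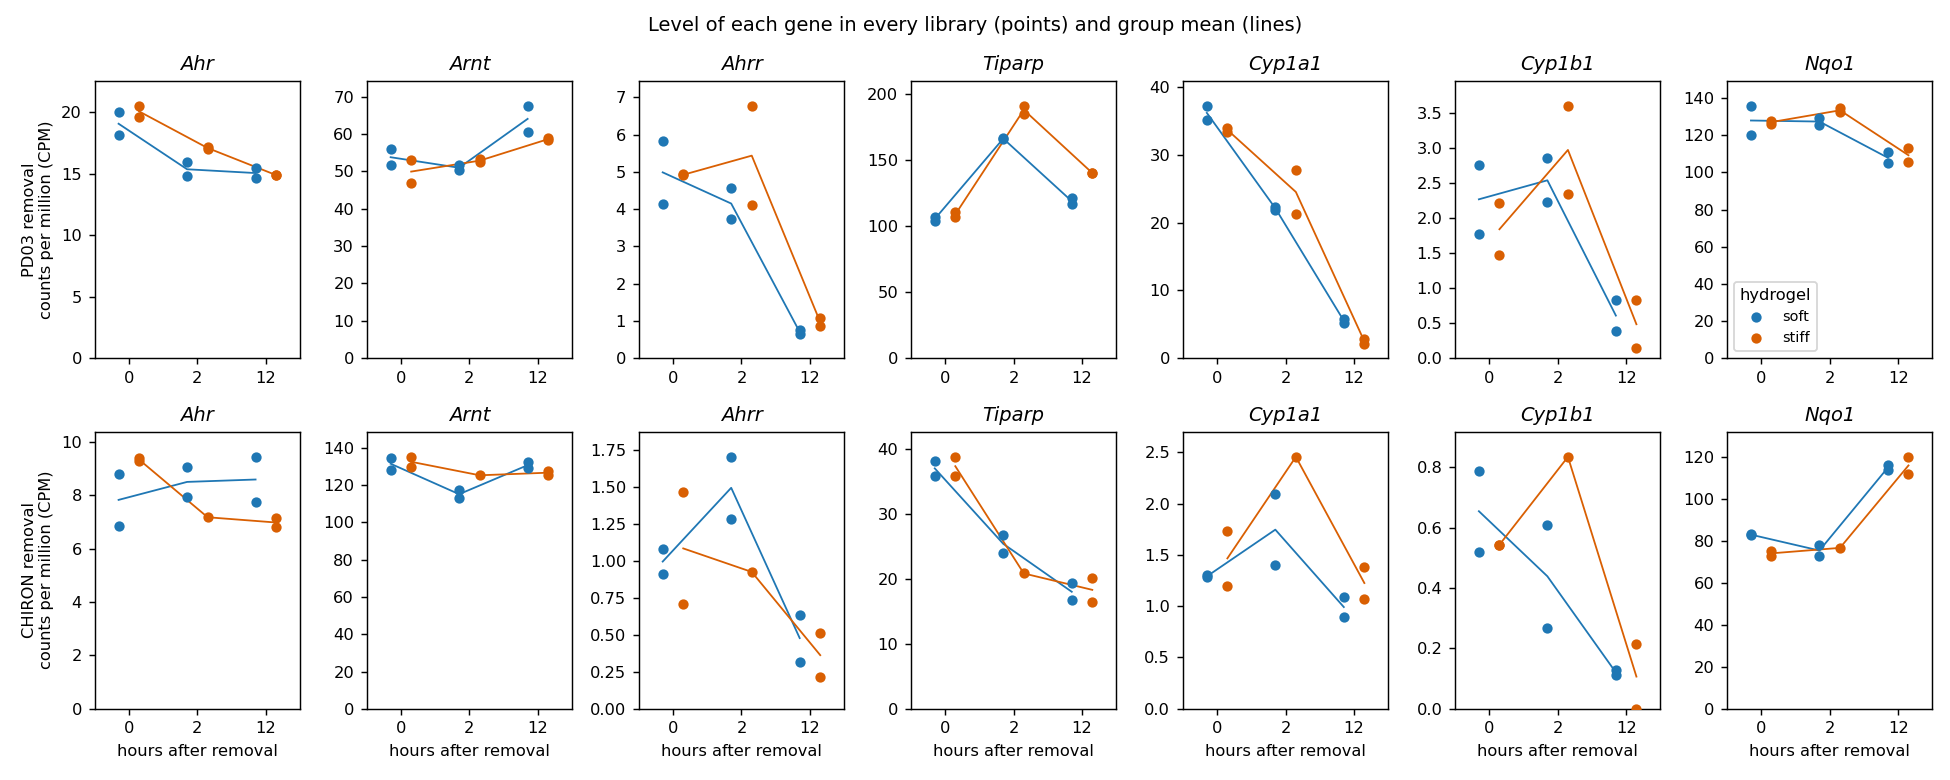
Level of the 7 members in every library, in CPM on axes that start at 0, against the hours after PD03 removal (upper row) or CHIRON removal (lower row). Points are libraries, lines join the group means, and blue and orange mark soft and stiff hydrogels. In the upper row Cyp1a1, Cyp1b1 and Ahrr are lowest at 12 h on both substrates and Tiparp is highest at 2 h, and in the lower row Tiparp is lower at 2 h and 12 h than at 0 h and Nqo1 is highest at 12 h.

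After 12 h without PD03, all 6 tested members differed from 0 h on both substrates: *Ahrr*, *Cyp1b1*, *Ahr* and *Nqo1* were lower, and *Arnt* and *Tiparp* were higher. Over all 13404 genes tested the share called at 12 h was 29.4% on soft (14.1% higher, 15.3% lower) and 38.4% on stiff (18.5% higher, 19.9% lower), so a call alone was common, and the sizes set the members apart from each other. *Ahrr* and *Cyp1b1* fell to between 0.143 and 0.267 of their 0 h level, while *Ahr*, *Nqo1*, *Arnt* and *Tiparp* moved by at most 0.43 on the log2 scale. At 2 h only *Tiparp* was called among the 6, against 1.96% of all genes on soft (1.31% higher, 0.649% lower) and 2.73% on stiff (1.84% higher, 0.895% lower). In RNA from whole populations, fewer expressing cells and less RNA per cell cannot be told apart.

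*Cyp1a1*, the gene that led to this set, encodes the enzyme most often used as the readout of AHR activity. Its level on soft was 35.3 and 37.2 CPM at 0 h, 21.96 and 22.36 CPM at 2 h and 5.84 and 5.21 CPM at 12 h. On stiff it was 34.0 and 33.5 CPM at 0 h, 21.3 and 27.8 CPM at 2 h and 2.09 and 2.89 CPM at 12 h. The groups did not overlap between times on either substrate, and the drop was already present at 2 h, by 0.71 on soft and 0.46 on stiff on the log2 scale. Ordered from the lowest log2 fold change of 13404 genes, *Cyp1a1* stood at rank 217 on soft and 540 on stiff at 2 h. At 12 h it stood at rank 6 on soft and 2 on stiff. The gene was chosen for this fall, so the ranks describe it and are no test.

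*Ahrr*, the feedback repressor that competes with AHR for ARNT, had 4.14 and 5.83 CPM on soft and 4.94 and 4.91 CPM on stiff at 0 h. At 12 h it had 0.756 and 0.651 CPM on soft and 0.864 and 1.07 CPM on stiff, well below every 0 h library. Its log2 fold change was -2.81 ± 0.33 (SE, n = 2 per group) on soft, with an edgeR adjusted p of 1.36e-07, and -2.35 ± 0.32 on stiff, with an edgeR adjusted p of 9.5e-07. On soft this was the fourth lowest value of all genes tested, and it kept its call without any of the 4 libraries of each comparison. At 2 h *Ahrr* had 4.56 and 3.74 CPM on soft and 4.11 and 6.76 CPM on stiff, which overlapped with 0 h (log2 fold changes -0.25 and 0.13, edgeR adjusted p = 0.755 and 0.859).

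*Cyp1b1*, the second cytochrome of the family in this set, was low throughout, with 2 to 50 counts in a library. It had 2.76 and 1.78 CPM on soft and 2.21 and 1.47 CPM on stiff at 0 h. At 12 h it had 0.825 and 0.391 CPM on soft and 0.144 and 0.825 CPM on stiff. All 12 h libraries were below those of 0 h, and the log2 fold changes were -1.91 ± 0.46 on soft (edgeR adjusted p = 0.00206) and -1.94 ± 0.52 on stiff (edgeR adjusted p = 0.00376). The call was lost without soft at 12 h replicate 2 (-1.46, edgeR adjusted p = 0.0549) and without stiff at 12 h replicate 1 (-1.12, edgeR adjusted p = 0.135).

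At 2 h *Cyp1b1* had 2.85 and 2.23 CPM on soft and 2.35 and 3.60 CPM on stiff. The stiff libraries lay above those of 0 h and the soft ones overlapped, and neither difference passed the test (log2 fold changes 0.71 and 0.16, edgeR adjusted p = 0.388 and 0.917). At 2 h the level of *Cyp1a1* was lower in every library than at 0 h, and neither *Ahrr* nor *Cyp1b1* passed the test in either direction. The 95% intervals at 2 h were -0.74 to 0.23 on soft and -0.32 to 0.59 on stiff for *Ahrr*. For *Cyp1b1* they were -0.57 to 0.89 and -0.01 to 1.43. On soft, falls of up to 0.74 for *Ahrr* and 0.57 for *Cyp1b1* were thus within the error.

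*Tiparp*, an AHR target whose product ADP-ribosylates the receptor, moved the other way. It had 103.7 and 107.1 CPM on soft and 107.2 and 110.4 CPM on stiff at 0 h, and 166.6 and 165.7 CPM on soft and 185.2 and 190.7 CPM on stiff at 2 h. The rise at 2 h was 0.66 ± 0.050 on soft (edgeR adjusted p = 2.59e-10) and 0.79 ± 0.049 on stiff (edgeR adjusted p = 1.93e-12) on the log2 scale. At 12 h the level was 116.3 and 121.3 CPM on soft and 139.9 and 140.4 CPM on stiff, between those of 0 h and 2 h, with log2 fold changes of 0.17 ± 0.051 (edgeR adjusted p = 0.00983) and 0.36 ± 0.050 (edgeR adjusted p = 1.27e-06). The 12 h call on soft was lost without soft at 0 h replicate 1 (edgeR adjusted p = 0.0867) and without soft at 12 h replicate 2 (edgeR adjusted p = 0.0998).

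*Ahr*, the receptor, had 18.1 and 19.98 CPM on soft and 20.5 and 19.6 CPM on stiff at 0 h. At 2 h it had 15.9 and 14.8 CPM on soft and 17.0 and 17.1 CPM on stiff, and at 12 h 14.6 and 15.4 CPM on soft and 14.9 and 14.8 CPM on stiff. Every library after removal was below every 0 h library of its substrate. At 12 h the log2 fold changes were -0.34 ± 0.11 on soft (edgeR adjusted p = 0.0163) and -0.43 ± 0.11 on stiff (edgeR adjusted p = 0.00222), and at 2 h they were -0.31 and -0.23 (edgeR adjusted p = 0.185 and 0.32). The soft call at 12 h was lost without soft at 0 h replicate 2 and without either soft library at 12 h (edgeR adjusted p = 0.0513 to 0.158), and DESeq2 gave an adjusted p of 0.062.

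*Arnt*, the partner of AHR and of the hypoxia factors, had 46.8 to 55.9 CPM in the 4 libraries of 0 h. It had 60.6 and 67.4 CPM on soft and 58.3 and 59.0 CPM on stiff at 12 h, above all of 0 h. Its log2 fold changes were 0.25 ± 0.072 on soft (edgeR adjusted p = 0.00805) and 0.23 ± 0.074 on stiff (edgeR adjusted p = 0.0161). The soft call was lost without soft at 0 h replicate 1 or soft at 12 h replicate 2 (edgeR adjusted p = 0.113 and 0.154), and the stiff call without stiff at 0 h replicate 1 or either stiff library at 12 h (edgeR adjusted p = 0.206, 0.0653 and 0.0797).

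*Nqo1*, a quinone reductase regulated by AHR and by NRF2, had 120.2 and 135.6 CPM on soft and 126.3 and 127.8 CPM on stiff at 0 h. At 12 h it had 110.8 and 104.9 CPM on soft and 105.4 and 113.1 CPM on stiff, below 0 h on each substrate. The log2 fold changes were -0.25 ± 0.057 (edgeR adjusted p = 0.00159) and -0.22 ± 0.058 (edgeR adjusted p = 0.0032). They lost the call without soft at 0 h replicate 2 (edgeR adjusted p = 0.0998) and without stiff at 12 h replicate 1 (edgeR adjusted p = 0.081). At 2 h *Nqo1* ran from 125.6 to 134.4 CPM and was not called on either substrate.

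Markers of cell state also differed between the times. The summed mESC markers were 4169 to 4346 CPM at 0 h and 3737 to 3889 CPM at 12 h of PD03 removal, and the summed endoderm markers 1.38 to 2.21 CPM and 2.67 to 3.31 CPM. Fibroblast markers summed to 2.65 to 3.45 CPM at 0 h and 3.45 to 4.25 CPM at 12 h, trophoblast markers to 58.6 to 62.6 CPM and 49.8 to 60.6 CPM, and neural markers to 63.0 to 79.2 CPM and 59.2 to 64.0 CPM. Most of the neural sum was *Tubb3*, at 48.3 to 70.6 CPM over the libraries. The median log2 fold change of the 4 neural markers at 12 h was 0.35 on soft and 0.52 on stiff. Of these 4, 1 was called higher and 1 lower on each substrate, beside 29.4% and 38.4% of all genes called. Counts on protein-coding genes were 76.7% to 77.5% of the total at 0 h and 73.1% to 74.5% at 12 h. The part of these shifts in the members' changes was not tested.

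**Figure D2:**
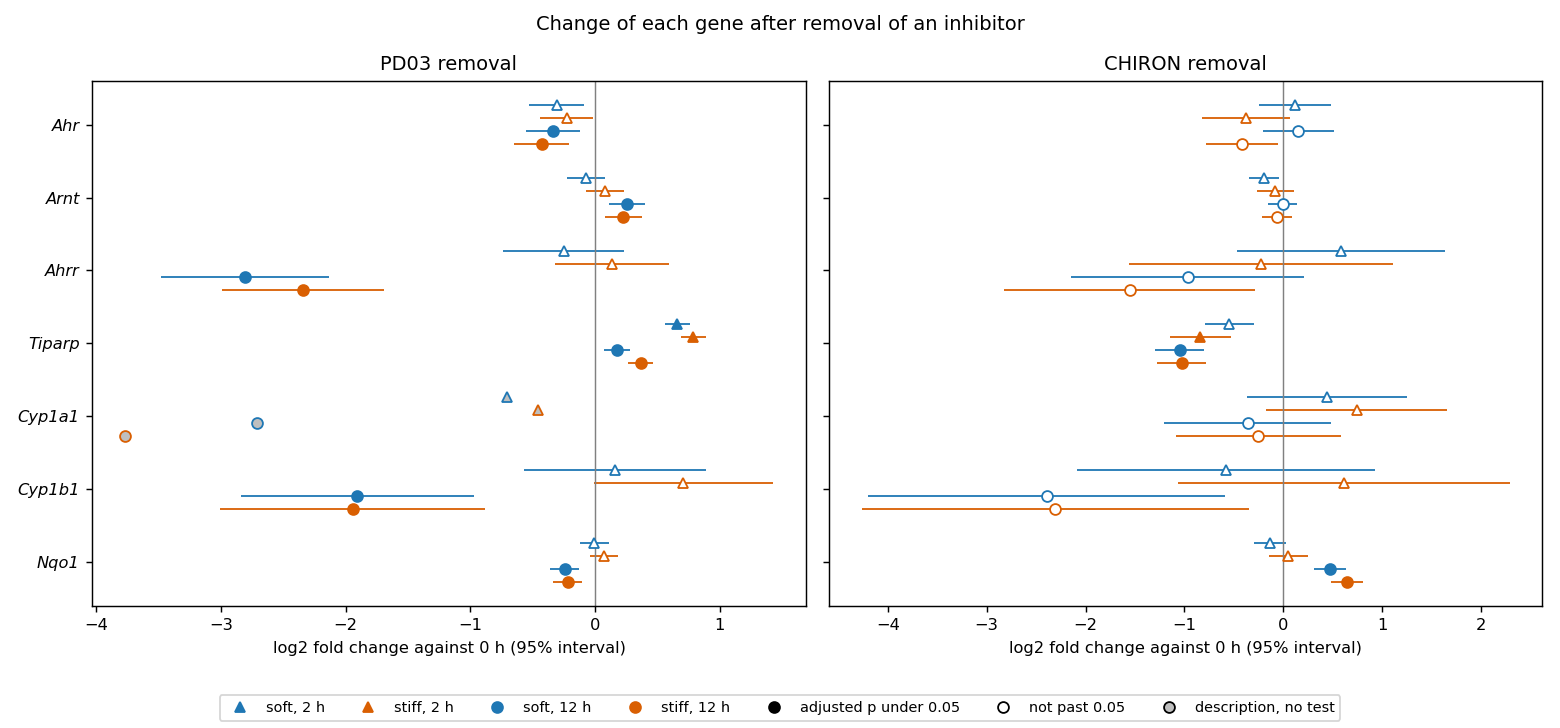
Log2 fold change of each member against 0 h after PD03 removal (left) and CHIRON removal (right). Triangles are 2 h and circles 12 h, colours are the substrates, and bars are 95% intervals worked back from the edgeR test. Filled symbols passed an adjusted p of 0.05, open ones did not, and grey ones (Cyp1a1 in PD03 removal) have no test. Ahrr and Cyp1b1 lie between -2.81 and -1.91 at 12 h on the left, and on the right filled symbols are seen for Tiparp below 0 and for Nqo1 above 0.

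Between the substrates, few calls were made at any time of PD03 removal. The share of all genes called between soft and stiff was 0.0298% at 0 h, 0.134% at 2 h and 0.776% at 12 h, and of the 6 members only *Tiparp* at 12 h was called. *Tiparp* was lower on soft than on stiff by 0.24 ± 0.050 on the log2 scale (edgeR adjusted p = 0.014), with both soft libraries below both stiff ones. This call was lost without any one of the 4 libraries (edgeR adjusted p = 0.0792 to 0.204). *Cyp1a1* at 12 h had 5.84 and 5.21 CPM on soft and 2.09 and 2.89 CPM on stiff, whereas at 0 h its levels of 33.5 to 37.2 CPM were nearly alike on the substrates.

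The test of the response itself, soft minus stiff, called none of the 6 members at 2 h, where 0.00746% of all genes were called, or at 12 h, where 0% were called by edgeR and 0 genes by DESeq2, with 899 genes at an unadjusted p under 0.05. The smallest unadjusted p among the 6 was that of *Tiparp* at 12 h, with a difference of -0.19 (95% interval -0.34 to -0.04, edgeR adjusted p = 0.622). For *Ahrr* at 12 h the difference was -0.46 with a 95% interval from -1.53 to 0.61, so a substrate effect of more than 2-fold was within the error.

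After CHIRON removal *Tiparp* fell, *Nqo1* rose, and *Cyp1a1*, *Cyp1b1*, *Ahr*, *Ahrr* and *Arnt* were not called at any time on either substrate. *Cyp1b1* (log2 fold changes -2.39 on soft and -2.30 on stiff at 12 h) and *Ahrr* (-0.97 and -1.56) had the direction seen after PD03 removal, without a call. At 12 h 2 of 7 members were called on each substrate, against 17.8% of all 14615 genes tested on soft (9.18% higher, 8.63% lower) and 16.8% on stiff (8.46% higher, 8.33% lower). At 2 h none was called on soft and only *Tiparp* on stiff, against 0.226% of all genes on soft (0.157% higher, 0.0684% lower) and 0.103% on stiff (0.0547% higher, 0.0479% lower).

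*Tiparp* had 35.9 and 38.1 CPM on soft and 35.9 and 38.8 CPM on stiff at 0 h. It had 26.8 and 24.0 CPM on soft and 20.8 CPM in the only stiff library at 2 h, and 16.7 and 19.3 CPM on soft and 20.1 and 16.5 CPM on stiff at 12 h. No library after removal overlapped with 0 h. The fall at 12 h was to 0.484 of the 0 h level on soft (log2 fold change -1.05 ± 0.12, edgeR adjusted p = 5.25e-06) and to 0.491 on stiff (-1.03 ± 0.12, edgeR adjusted p = 7.2e-06), and these calls held in every alternative run.

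At 2 h the log2 fold changes of *Tiparp* were -0.54 ± 0.12 on soft (edgeR adjusted p = 0.0653) and -0.84 ± 0.15 on stiff (edgeR adjusted p = 0.0277). The 2 h calls turned on the settings: on soft the gene was called by DESeq2 (adjusted p = 0.0285), and on stiff the call was lost without either stiff library of 0 h (edgeR adjusted p = 0.0519 and 0.0601) and in a fit of only the groups compared (edgeR adjusted p = 0.927).

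*Nqo1* had 82.6 and 83.4 CPM on soft and 75.3 and 72.9 CPM on stiff at 0 h, and at 12 h it had 114.0 and 115.9 CPM on soft and 111.8 and 120.0 CPM on stiff. All 12 h libraries were above all 0 h libraries. The rise was 0.47 ± 0.076 on soft (edgeR adjusted p = 0.000254) and 0.65 ± 0.077 on stiff (edgeR adjusted p = 9.61e-06) on the log2 scale. Both calls were lost with the discarded library included (edgeR adjusted p = 0.589 and 0.322). At 2 h the levels were 77.8 and 73.0 CPM on soft and 76.7 CPM on stiff, and neither difference was called.

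*Cyp1a1* was low in CHIRON removal, with 14 to 53 counts in a library. It had 1.28 and 1.30 CPM on soft and 1.74 and 1.20 CPM on stiff at 0 h, 1.40 and 2.09 CPM on soft and 2.46 CPM on stiff at 2 h, and 1.09 and 0.896 CPM on soft and 1.39 and 1.07 CPM on stiff at 12 h. The 2 h libraries were above those of 0 h, and at 12 h the soft libraries were below and the stiff ones overlapped. The log2 fold change at 12 h was -0.36 on soft (95% interval -1.20 to 0.49, edgeR adjusted p = 0.604) and -0.26 on stiff (-1.09 to 0.58, edgeR adjusted p = 0.723). At 2 h it was 0.44 on soft (-0.36 to 1.25) and 0.74 on stiff (-0.17 to 1.66), not called on either.

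*Cyp1b1* had 0.787 and 0.520 CPM on soft and 0.543 CPM in each stiff library at 0 h of CHIRON removal, from 10 to 16 counts. At 12 h it had 3 and 2 counts on soft and 0 and 4 counts on stiff, where 3 counts stand for 0.112 to 0.192 CPM. The ratio of the summed counts, 12 h over 0 h and scaled for depth, was 0.183 on soft (95% exact binomial interval 0.0552 to 0.480) and 0.193 on stiff (0.0479 to 0.575), intervals that cover counting error only. With the spread between libraries taken in, the fitted log2 fold changes of -2.39 and -2.30 were not called (edgeR adjusted p = 0.0636 and 0.104). On soft the gene was called in a fit of only the groups compared (edgeR adjusted p = 0.0325), and on stiff without stiff at 12 h replicate 2 (edgeR adjusted p = 0.0481), which leaves a library with 0 counts.

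*Ahrr* had 1.08 and 0.911 CPM on soft and 1.46 and 0.706 CPM on stiff at 0 h, 1.71 and 1.29 CPM on soft and 0.926 CPM on stiff at 2 h, and 0.637 and 0.320 CPM on soft and 0.513 and 0.213 CPM on stiff at 12 h. The 12 h libraries were below those of 0 h on both substrates. The log2 fold changes at 12 h, -0.97 ± 0.56 on soft and -1.56 ± 0.60 on stiff, were not called (edgeR adjusted p = 0.262 and 0.0886), with intervals of -2.14 to 0.21 and -2.82 to -0.29.

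*Ahr* had 6.85 to 9.40 CPM at 0 h of CHIRON removal, 9.44 and 7.75 CPM on soft at 12 h and 6.82 and 7.14 CPM on stiff at 12 h. Its log2 fold changes at 12 h were 0.15 (95% interval -0.21 to 0.51) on soft and -0.42 (-0.79 to -0.05) on stiff, with edgeR adjusted p of 0.604 and 0.115. *Arnt* had 128.1 to 135.1 CPM at 0 h and 125.5 to 132.2 CPM at 12 h. Its log2 fold changes at 12 h were -0.01 (-0.16 to 0.14) and -0.06 (-0.22 to 0.09), so a change of *Arnt* of over 0.22 on the log2 scale lay outside both intervals.

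No member was called between soft and stiff at any time of CHIRON removal, and none in its response. The same comparisons called 0% of all genes with edgeR and 0 genes with DESeq2, and 508, 838 and 471 genes had an unadjusted p under 0.05 at 0 h, 2 h and 12 h, and 452 and 415 genes for the responses at 2 h and 12 h. Without stiff at 0 h replicate 1, 12 genes were called between the substrates at 0 h and 10 genes in the 12 h response, and without stiff at 0 h replicate 2, 11 genes were called in the 2 h response. The mESC markers summed to 3413 to 3590 CPM at 0 h and 3925 to 4132 CPM at 12 h of CHIRON removal, and the neural markers to 51.2 to 60.8 CPM and 81.2 to 86.6 CPM, and their part in the changes of *Tiparp* and *Nqo1* was not tested.

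The response to PD03 removal was then set against that to CHIRON removal in a fit of 23 libraries and 14758 genes, for the 6 members other than *Cyp1a1*. *Tiparp* differed at each time on each substrate: the response to PD03 removal minus that to CHIRON removal was 1.20 ± 0.11 on soft and 1.63 ± 0.13 on stiff at 2 h, and 1.22 ± 0.12 on soft and 1.39 ± 0.12 on stiff at 12 h, on the log2 scale. The edgeR adjusted p was 1.11e-07 and 4.65e-09 at 2 h, and 7.58e-09 and 6.82e-10 at 12 h. *Nqo1* differed at 12 h, by -0.72 ± 0.093 on soft (edgeR adjusted p = 1.7e-06) and -0.86 ± 0.094 on stiff (edgeR adjusted p = 8.06e-08). At 2 h 1 of 6 members was called on each substrate, against 0.813% of all genes on soft and 0.779% on stiff (120 and 115 genes, or 48 to 118 and 76 to 209 with a library left out), and at 12 h 3 of 6 members were, against 21% and 23.5%.

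For *Ahrr* the difference at 12 h was -1.87 ± 0.64 on soft (edgeR adjusted p = 0.0363) and -0.79 on stiff (95% interval -2.20 to 0.62, edgeR adjusted p = 0.452). The soft call was lost in 6 of the fits that left out a library (edgeR adjusted p = 0.0531 to 0.432), with a difference of -1.18 without CHIRON removal soft at 12 h replicate 1. For *Arnt* at 12 h the difference was 0.26 on soft (edgeR adjusted p = 0.0613) and 0.29 ± 0.099 on stiff (edgeR adjusted p = 0.0318), and the stiff call was lost in 5 of the fits that left out a library (edgeR adjusted p = 0.0661 to 0.193). For *Cyp1b1* the difference at 12 h was 0.48 on soft (-1.49 to 2.45) and 0.36 on stiff (-1.76 to 2.48), so the changes after PD03 and CHIRON removal could not be told apart at this depth. *Ahr* was not called (-0.50 on soft and -0.01 on stiff at 12 h, edgeR adjusted p = 0.0586 and 0.99). The experiments were separate series of libraries, and their processing in the laboratory and the inhibitor cannot be told apart.

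**Figure D3:**
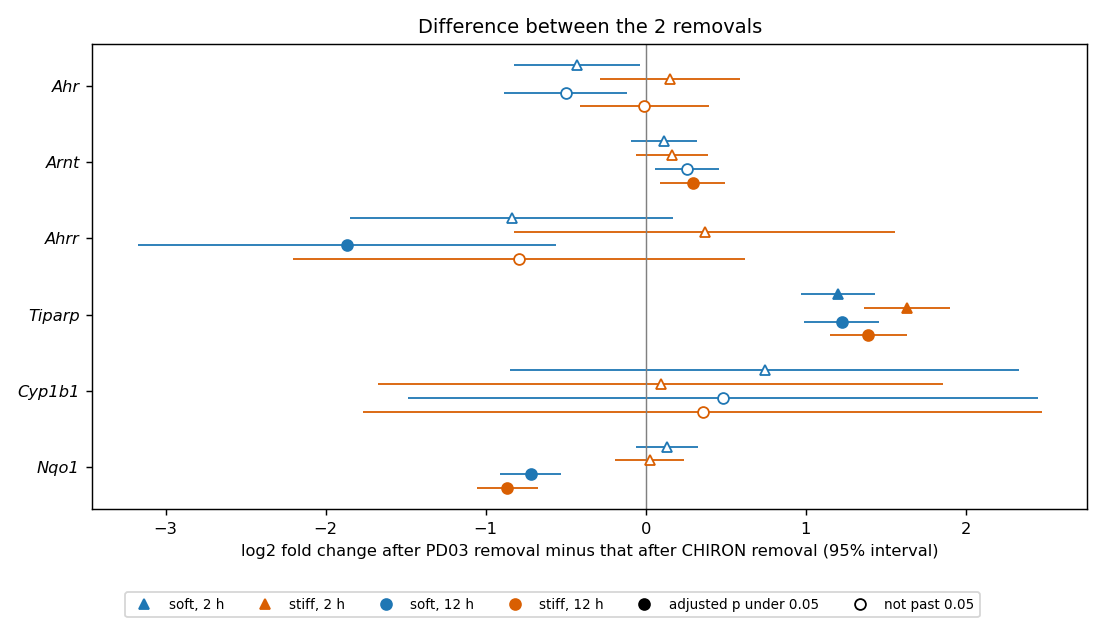
Response to PD03 removal minus response to CHIRON removal, as a difference of log2 fold changes with its 95% interval, for the 6 members other than Cyp1a1. Triangles are 2 h, circles 12 h, colours are the substrates, and filled symbols passed an adjusted p of 0.05. Tiparp lies between 1.20 and 1.63 at all times, Nqo1 at -0.72 and -0.86 at 12 h, and the intervals of Cyp1b1 span 0.

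The 0 h libraries of both experiments share the same stated condition, cells in 2i+LIF on soft or stiff hydrogels, and yet the members' levels differed. *Cyp1a1* was 35.0 ± 1.67 CPM (SD, n = 4) at 0 h of PD03 removal and 1.38 ± 0.243 CPM (n = 4) at 0 h of CHIRON removal, a ratio of 25.4. *Ahrr* was 4.96 ± 0.692 CPM against 1.04 ± 0.322 CPM, and *Cyp1b1* 2.05 ± 0.560 CPM against 0.598 ± 0.126 CPM. *Tiparp* was 107.1 ± 2.76 CPM against 37.2 ± 1.49 CPM, *Ahr* 19.6 ± 1.01 CPM against 8.58 ± 1.18 CPM and *Nqo1* 127.5 ± 6.33 CPM against 78.5 ± 5.24 CPM. *Arnt* was the other way round, with 51.8 ± 3.82 CPM against 132.0 ± 3.51 CPM. The libraries of the experiments did not overlap for any of the 7 members. How often this held over all genes was not counted, so it does not set the members apart.

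Such gaps were common over the genome, since 35.3% of 12867 genes at 1 CPM or more differed by 2-fold or more between the 0 h libraries of the experiments, with a median log2 ratio of 0.29. A ratio as large as that of *Cyp1a1* in either direction was seen in 0.668% of these genes, as large as that of *Ahrr* in 6.62%, of *Cyp1b1* in 13.7%, of *Tiparp* in 15.8%, of *Arnt* in 21%, of *Ahr* in 27.2% and of *Nqo1* in 52.4%. *Cyp1a1* was chosen by its fall from its 0 h level in PD03 removal, so its share describes a chosen gene and is no test. The 0 h levels come from tables counted and scaled apart and were not tested. *Cyp1a1* thus began CHIRON removal at a level below that which it reached on either substrate 12 h after PD03 removal.

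**Figure D4:**
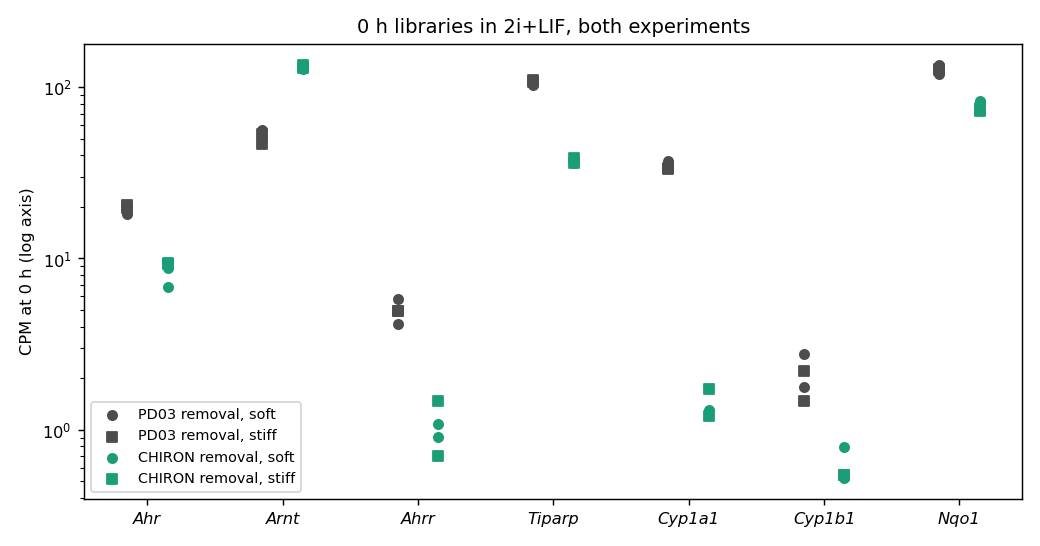
CPM of the 7 members in the 0 h libraries on a log axis, with PD03 removal in grey and CHIRON removal in green, circles for soft and squares for stiff. Cyp1a1 lies at 33.5 to 37.2 CPM in the former and at 1.20 to 1.74 CPM in the latter, and Arnt is the only member that is higher in CHIRON removal.

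Other known AHR targets were given by a list of 17 genes, of which 8 had counts enough to be tested in PD03 removal and 9 in CHIRON removal. At 12 h of PD03 removal 1 of 8 rose and none fell on soft, with a median log2 fold change of -0.08 beside -0.00137 for all genes, of which 29.4% were called. On stiff 1 of 8 rose and 4 fell, with a median of -0.85 beside -0.00155 for all genes, of which 38.4% were called (18.5% higher, 19.9% lower). *Aldh3a1*, an aldehyde dehydrogenase, fell by 2.2 on stiff (edgeR adjusted p = 0.00107) and *Cyp1a2*, the neighbour and paralogue of *Cyp1a1*, fell by 2.09 on stiff (edgeR adjusted p = 0.00482) on the log2 scale. On soft their log2 fold changes were -0.96 and -1.30 (edgeR adjusted p = 0.0805 and 0.0635), and their responses were not called as different between soft and stiff (1.25 and 0.79, edgeR adjusted p = 0.787 and 0.916).

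These are low genes. On stiff in PD03 removal, *Cyp1a2* had 18 and 24 counts at 0 h and 2 and 5 counts at 12 h, and *Aldh3a1* had 25 and 33 counts at 0 h and 6 and 3 counts at 12 h. *Ptgs2*, which makes prostaglandins, rose by 1.60 at 2 h on stiff (edgeR adjusted p = 0.00435) and fell by 1.42 at 12 h on stiff (edgeR adjusted p = 0.0291) on the log2 scale.

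At 12 h of CHIRON removal 1 of 9 genes of the same list fell and none rose on each substrate, with medians of -0.24 on soft and 0.17 on stiff beside -0.0141 and -0.00854 for all genes, of which 17.8% and 16.8% were called. *Slc7a5*, an amino acid transporter, fell by 0.30 and 0.33 on soft and stiff (edgeR adjusted p = 0.0224 and 0.0124) on the log2 scale. *Slc7a5* had risen by 0.18 and 0.25 at 12 h of PD03 removal (edgeR adjusted p = 0.0285 and 0.0025). For *Cyp1a2* the change was -0.24 (soft) and 0.17 (stiff) and for *Aldh3a1* -0.79 and 0.32 on the log2 scale, and none was called. At 2 h the list held no call in CHIRON removal and none on soft in PD03 removal, and 2 of 8 rose on stiff, *Ptgs2* and *Slc7a5* (0.24, edgeR adjusted p = 0.0304). Over all genes the share called at 2 h was 0.226% on soft and 0.103% on stiff in CHIRON removal. In PD03 removal it was 1.96% on soft and 2.73% on stiff (1.84% higher).

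**Figure D5:**
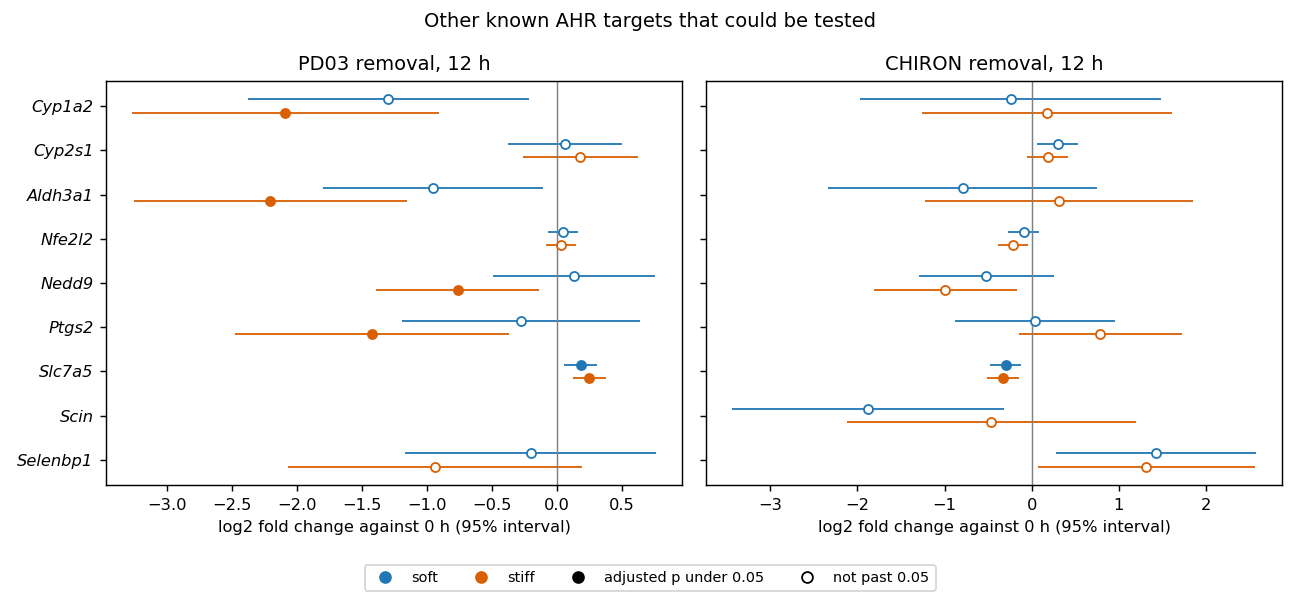
Log2 fold change at 12 h against 0 h, with its 95% interval, of the listed AHR targets that could be tested after PD03 removal (left) and CHIRON removal (right). Blue and orange mark soft and stiff, and filled symbols passed an adjusted p of 0.05. Cyp1a2 and Aldh3a1 are filled only on stiff in the left panel, at -2.09 and -2.2.

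Of 6 genes for proteins that hold AHR or help it to activate genes, 1 rose and 1 fell at 12 h of PD03 removal on each substrate, a share near the 29.4% (soft) and 38.4% (stiff) of all genes called: the coactivator *Ncoa3* rose by 0.28 on soft and 0.31 on stiff (edgeR adjusted p = 8.79e-05 and 1.58e-05), and the chaperone gene *Hsp90aa1* fell by 0.21 and 0.25 (edgeR adjusted p = 3.39e-05 and 1.94e-06) on the log2 scale. At 2 h 1.96% of all genes on soft and 2.73% on stiff were called in PD03 removal, and 0.226% and 0.103% in CHIRON removal. None of the 6 was called at 2 h, or after CHIRON removal at any time, where 17.8% of all genes on soft and 16.8% on stiff were called at 12 h. Their median log2 fold changes at 12 h were -0.00 and -0.02 in PD03 removal and 0.01 and 0.01 in CHIRON removal.

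Among the other partners of ARNT and its relatives, *Arnt2*, a paralogue of *Arnt*, rose by 0.46 on soft and 0.54 on stiff at 12 h of PD03 removal (edgeR adjusted p = 0.0279 and 0.00689). *Hif1a*, the hypoxia factor that pairs with ARNT, fell by 0.19 and 0.13 (edgeR adjusted p = 0.00327 and 0.0371). *Epas1*, the related factor HIF2A, rose by 0.64 on stiff at 12 h of PD03 removal (edgeR adjusted p = 0.000245), with 0.32 on soft (edgeR adjusted p = 0.0651), and rose by 1.24 and 1.22 at 12 h of CHIRON removal (edgeR adjusted p = 1.78e-08 and 2.38e-08), all on the log2 scale. In all 2 of 3 genes on soft and 3 of 3 on stiff were called in the former, and 1 of 3 on each substrate in the latter, beside 29.4% and 38.4% of all genes in the former and 17.8% and 16.8% in the latter.

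Of 11 tested genes of the NRF2 pathway, which shares *Nqo1* as a target, 2 rose and 3 fell on each substrate at 12 h of PD03 removal, beside 29.4% (soft) and 38.4% (stiff) of all genes called, with medians of 0.04 on soft and 0.03 on stiff. The glutathione synthesis genes went apart: *Gclc* fell by 0.31 and 0.20 (edgeR adjusted p = 9.63e-05 and 0.00592) and *Gclm* rose by 0.23 and 0.22 (edgeR adjusted p = 0.00845 and 0.00856) on the log2 scale. At 12 h of CHIRON removal, in which *Nqo1* rose, *Srxn1* rose by 0.53 and 0.47 (edgeR adjusted p = 0.00342 and 0.00929) and *Gstm1* by 0.40 and 0.38 (edgeR adjusted p = 0.00214 and 0.00346), and the other 9 were not called on soft. On stiff *Gclc* fell by 0.27 (edgeR adjusted p = 0.0209). Over all genes 17.8% were called on soft and 16.8% on stiff at 12 h of CHIRON removal. At 2 h the heme oxygenase gene *Hmox1* rose by 0.46 on stiff in PD03 removal (edgeR adjusted p = 0.00258), and none of the 11 was called in the other 2 h comparisons. The shares of all genes called at 2 h were 1.96% on soft and 2.73% on stiff in PD03 removal. In CHIRON removal they were 0.226% and 0.103%.

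Of 4 enzymes that form AHR ligands from tryptophan or its products, only *Ido2* and *Il4i1* could be tested. *Ido2* had 27.3 to 30.2 CPM at 0 h of CHIRON removal and 1.86 to 3.07 CPM at 12 h. It fell by 3.44 on soft and 3.82 on stiff on the log2 scale (edgeR adjusted p = 1.08e-10 and 4.95e-11). In PD03 removal it was at 13.7 to 23.5 CPM and rose by 0.29 on stiff at 12 h (edgeR adjusted p = 0.0323), without a call in the other 3 comparisons with 0 h.

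The genes whose 4 log2 fold changes in PD03 removal lay nearest to those of *Cyp1a1* were *Abcb11*, *Tmem132d*, *Pga5*, *Khdc1c* and *Galnt18*, with root mean square differences of 0.54 to 0.73 on the log2 scale over the 4 comparisons with 0 h. At 12 h their log2 fold changes ran from -2.37 to -1.83 on soft and from -3.68 to -2.80 on stiff. They had 0 to 73 counts in a library of PD03 removal, and their nearness to *Cyp1a1* is a description only. After CHIRON removal, which was not used to pick them, their directions differed: *Tmem132d* rose by 1.87 on soft and 1.86 on stiff at 12 h (edgeR adjusted p = 7.61e-08 and 1.35e-07), and *Galnt18* fell by 3.27 and 2.59 (edgeR adjusted p = 0.00541 and 0.0166) on the log2 scale. *Abcb11* and *Pga5* rose on stiff by 2.04 and 1.54 (edgeR adjusted p = 0.00691 and 0.0102) and had 1.38 and 1.02 on soft (edgeR adjusted p = 0.0679 and 0.056), and *Khdc1c* was not called (-2.49 and -2.55, edgeR adjusted p = 0.276 and 0.111).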

How the data were processed

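Total RNA depleted of ribosomal RNA was sequenced from mESCs on soft and stiff hydrogels. The authors deposited whole-number read counts per gene, made with Trim Galore, TopHat 2.1.0 on GRCm38/mm10 and featureCounts 1.5.0; the strand setting is not given in the sources used here. Empty lines (23) were dropped, 15 gene names that look like dates were left as found, and 12 columns of other samples were not used. Of 35022 and 48709 genes, 19285 and 21695 were protein-coding in GENCODE M21.

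Counts of protein-coding genes were filtered with filterByExpr (minimum count 10, minimum total 15), scaled by TMM and fitted with the quasi-likelihood test of edgeR 4.0.16 (R 4.3.3) over 6 groups per experiment, with 12 libraries of PD03 and 11 of CHIRON removal. A joint fit of 23 libraries compared the responses. A call is a Benjamini-Hochberg adjusted p under 0.05 over all genes tested. Errors after ± are standard errors of log2 fold changes, or SD for levels. DESeq2 1.42.0, DESeq2 size factors, no filter, all genes, a replicate block, fits of only the groups compared, the discarded library included and each library left out were alternatives. The code was tested on simulated counts.

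The labels do not say that replicates were separate cultures, so p-values measure the spread between these libraries, which may be technical. Replicates differed by more than counting noise (chi-square per degree of freedom 2.19 to 18.1). The members and lists were chosen with earlier results of these data known. All 7 members are named; of each list at most the 4 called genes with the largest change in a comparison are named, and the 5 genes nearest to *Cyp1a1* over its log2 fold changes in PD03 removal. Some genes of the lists are not reported here, and the list counts and medians are without them.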

Additional observations from a re-analysis of the deposited data

Results flagged for a closer look

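These results stood out because the responses to PD03 removal and to CHIRON removal differed from each other by the edgeR test of the difference itself, on the log2 scale. The response of *Tiparp* to PD03 removal exceeded that to CHIRON removal by 1.20 on soft and 1.63 on stiff at 2 h, and by 1.22 on soft and 1.39 on stiff at 12 h. For *Nqo1* at 12 h the difference was -0.72 on soft and -0.86 on stiff. For *Ahrr* at 12 h on soft it was -1.87, and for *Arnt* at 12 h on stiff it was 0.29. The calls of *Tiparp* and *Nqo1* held in all alternatives run, and those of *Ahrr* and *Arnt* did not. The inhibitor and the experiment in which it was removed cannot be told apart.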

How the results depend on the processing

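A value is said to keep its call here if it stayed on the same side of the threshold. Most values were called in neither run, and these count as kept. No tested value of a member changed direction while called. Of 930 values under alternatives other than leaving out a library, 914 kept their call, 11 lost and 5 gained one. Of 710 values with a library left out, 675 kept, 31 lost and 4 gained it. The members called at 12 h of PD03 removal numbered 2 to 6 on soft and 3 to 6 on stiff when a library was left out. The lowest were without soft at 12 h replicate 2 and stiff at 12 h replicate 1, and between soft and stiff at 12 h there were 0 in each case. Over all genes those fits called 2597 to 2926 in place of 3941 on soft and 3701 to 4130 in place of 5152 on stiff. Between soft and stiff at 12 h they called 12 to 32 in place of 104. On soft at 2 h of CHIRON removal 1 member was called with DESeq2, with no filter and in the fit of only the groups compared. Over all genes these runs called 48, 144 and 48 in place of 33. On stiff at 2 h 0 members were called with all genes, in the fit of only the groups compared, with the discarded library included, without either stiff library of 0 h, and with the replicate block. With the discarded library included, 1 member was called at 12 h on each substrate, *Nqo1* being the one lost. Replicate numbers did not pair the libraries (correlation of deviations -0.053 to 0.113 over 15 pairs in PD03 removal and -0.109 to 0.0713 over 10 pairs in CHIRON removal). With the block the member counts were 1, 6, 1 and 6 in PD03 removal and 0, 2, 0 and 2 in CHIRON removal (soft 2 h, soft 12 h, stiff 2 h, stiff 12 h). Over all genes the block called 293, 4008, 373 and 5144 in PD03 removal in the same order. In CHIRON removal it called 21, 2278, 4 and 2149. The causes were not tested.

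Counts over all genes moved as well. Leaving out a library gave 138 to 153 in place of 263 on soft at 2 h of PD03 removal and 2597 to 2926 in place of 3941 on soft at 12 h. On stiff it gave 208 to 273 in place of 366 at 2 h and 3701 to 4130 in place of 5152 at 12 h. Between soft and stiff it gave 0 to 2 in place of 4 at 0 h, 5 to 13 in place of 18 at 2 h and 12 to 32 in place of 104 at 12 h. For the responses at 2 h and 12 h it gave 0 to 2 in place of 1 and 0 to 3 in place of 0. In CHIRON removal it gave 8 to 17 in place of 33 (soft 2 h), 1376 to 1821 in place of 2603 (soft 12 h), 5 to 29 in place of 15 (stiff 2 h) and 1295 to 1925 in place of 2455 (stiff 12 h). With no filter, the counts were 401 for PD03 removal on soft at 2 h, 30, 68 and 185 between its substrates at 0 h, 2 h and 12 h (main counts 4, 18 and 104), 6 and 17 for its responses (1 and 0), 144 and 89 for CHIRON removal at 2 h on soft and stiff, 17, 54 and 15 between its substrates and 14 and 7 for its responses (0 in each), and 231 and 257 for the difference between removals at 2 h (120 and 115). The fit of only the groups compared gave 175 between soft and stiff at 12 h of PD03 removal, 30 at 2 h of CHIRON removal, 0 for CHIRON removal on stiff at 2 h and 65 for the difference between removals on stiff at 2 h. DESeq2 gave 2 between the PD03 substrates at 0 h and 23 for CHIRON removal on stiff at 2 h, all genes gave 0 and 8, and the block gave 21 and 4 for CHIRON removal at 2 h on soft and stiff. With the discarded library, CHIRON removal gave 1 and 457 on soft and 0 and 461 on stiff, and the difference between removals 25 and 940 on soft and 22 and 1219 on stiff (3093 and 3467 at 12 h without it). Counts of *Cyp1b1* and *Ahrr* in CHIRON removal were too low to show changes as small as those of *Nqo1*.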
